A study of Homo sapiens with 9 samples.

Results

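The plasminogen activator system was examined as 5 genes, chosen by symbol as plasminogen activators, their receptors and serpin inhibitors, among the 42717 genes of the count table. These were PLAU, PLAT, PLAUR, PLGRKT and SERPINE2, and all 5 passed the expression filter in every comparison. RNA-seq was run on 9 libraries, 3 each from S2-007 cells, S2-020 cells and S2-028 cells. These lines are untreated sublines of SUIT-2, a human pancreatic ductal adenocarcinoma (PDAC) cell line, and all were grown in DMEM with fetal bovine serum. In the study's own account, S2-007 carries the serpin maspin in nucleus and cytoplasm (panMaspin), S2-028 carries it in the cytoplasm only (cytMaspin), and S2-020 has little of it. Each group is thus 1 subline, so a difference between groups is a difference between sublines, and maspin cannot be told apart from whatever else sets them apart.

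Plasminogen is an inactive precursor that is cut into plasmin, a protease that dissolves fibrin, degrades matrix proteins and activates other proteases. It is cut by the urokinase-type activator (uPA, from PLAU), which works largely at the cell surface bound to its receptor uPAR (from PLAUR), and by the tissue-type activator (tPA, from PLAT), known mainly from clot lysis and also expressed by many pancreatic tumors. PLGRKT encodes a membrane protein that binds plasminogen, and SERPINE2 encodes protease nexin-1, a secreted serpin that traps thrombin, uPA and tPA. Serpin-bound uPA is cleared from the surface through LRP1, an endocytic receptor.

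S2-028 cells had the highest PLAU mRNA and the lowest PLAT and SERPINE2 mRNA of the 3 lines, S2-007 cells had the reverse, and S2-020 cells lay between them for all 3 genes. PLAU was 6.63-fold higher, PLAT 34.9-fold lower and SERPINE2 305-fold lower in S2-028 than in S2-007. PLAUR followed another order, with its highest level in S2-020. PLGRKT was not called different between any lines.

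The promoter windows of the members with the largest opposite differences, PLAU and SERPINE2, and of the receptor gene PLAUR are shown. They surround annotated starts, and the starts used in these cells were not measured. Each is the RefSeq window (GRCh38.p14) from 250 bases before to 50 bases after an annotated start, printed from 5′ to 3′, and PLAU and SERPINE2 each have 2 such windows. Of the 5 members, 4 had a window in the table used, and PLAT had none. Capitals mark matches on either strand to the AP-1 motif (searched as TGANTCA), the CCAAT box (CCAAT), the GC box (GGGCGG), the E-box (CACGTG) and the TATA box (TATAAA), none of which overlap in these windows.
PLAU window 1, chr10:73910360-73910659, plus strand: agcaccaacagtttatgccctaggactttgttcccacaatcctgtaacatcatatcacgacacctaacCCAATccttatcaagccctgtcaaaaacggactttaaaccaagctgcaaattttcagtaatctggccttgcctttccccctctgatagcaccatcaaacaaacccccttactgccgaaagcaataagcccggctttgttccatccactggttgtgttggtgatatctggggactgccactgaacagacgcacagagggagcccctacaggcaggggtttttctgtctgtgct
PLAU window 2, chr10:73910882-73911181, plus strand: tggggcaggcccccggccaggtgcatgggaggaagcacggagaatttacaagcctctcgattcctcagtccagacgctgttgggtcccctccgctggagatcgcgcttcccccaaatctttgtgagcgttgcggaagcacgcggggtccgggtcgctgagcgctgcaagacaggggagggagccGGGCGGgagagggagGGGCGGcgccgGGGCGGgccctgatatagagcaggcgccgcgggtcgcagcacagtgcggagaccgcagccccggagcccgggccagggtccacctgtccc
SERPINE2 window 1, chr2:224038591-224038890, minus strand: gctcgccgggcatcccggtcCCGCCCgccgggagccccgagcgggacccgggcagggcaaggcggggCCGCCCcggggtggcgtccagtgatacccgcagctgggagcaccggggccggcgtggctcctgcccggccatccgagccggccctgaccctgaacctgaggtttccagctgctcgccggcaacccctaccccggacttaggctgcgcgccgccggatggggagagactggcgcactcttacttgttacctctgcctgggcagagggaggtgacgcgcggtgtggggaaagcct
SERPINE2 window 2, chr2:224031429-224031728, minus strand: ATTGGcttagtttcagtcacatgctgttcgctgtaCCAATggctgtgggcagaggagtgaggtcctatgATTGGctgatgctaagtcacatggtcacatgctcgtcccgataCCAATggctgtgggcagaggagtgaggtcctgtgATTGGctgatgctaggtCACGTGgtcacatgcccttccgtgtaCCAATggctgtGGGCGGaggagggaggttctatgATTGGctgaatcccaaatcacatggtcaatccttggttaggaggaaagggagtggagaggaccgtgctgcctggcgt
PLAUR window, chr19:43670120-43670419, minus strand: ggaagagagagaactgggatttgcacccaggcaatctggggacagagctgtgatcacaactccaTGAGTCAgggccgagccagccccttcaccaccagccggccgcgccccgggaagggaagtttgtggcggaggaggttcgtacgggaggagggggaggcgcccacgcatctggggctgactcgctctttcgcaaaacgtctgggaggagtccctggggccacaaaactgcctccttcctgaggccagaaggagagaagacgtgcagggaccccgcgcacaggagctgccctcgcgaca

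PLAU window 1 held 1 CCAAT match and 5 CpG dinucleotides, whereas window 2 held 3 GC boxes and 28 CpGs, against a median of 14 CpGs over 35116 windows. SERPINE2 window 1 was rich in CpG as well, with 31 CpGs and 2 GC boxes. SERPINE2 window 2 held 7 CCAAT matches, 1 GC box and 1 E-box, and as many CCAAT matches were found in 0.0228% of all windows. Those read as CCAAT began 215, 138 and 61 bases before the start, each followed by nearly the same sequence with an ATTGG in it. The matches thus lie largely in copies of a repeated stretch and are not separate occurrences. The PLAUR window held 1 AP-1 match, TGAGTCA, from 186 to 180 bases before the start. Over all 35116 windows, AP-1 was present in 7.71%, CCAAT in 34.6%, the GC box in 45%, the E-box in 7.26% and the TATA box in 11.5%. No TATAAA lay in the printed windows. These matches describe letters, and the counts of reads per gene do not separate transcripts of different starts.

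The total count was between 60328748 and 86253923 per library, and each library correlated more closely with libraries of its own line (Pearson's r of log2 CPM across genes, which are not independent replicates, 0.973 to 0.980) than with those of other lines (0.929 to 0.943). No library stood apart from its line and no pair looked like 1 library deposited as 2. The epithelial markers EPCAM, KRT19, KRT8, KRT18 and CDH1 were present in every library, at a summed 9318 to 9813 CPM in S2-007, 4266 to 5382 in S2-020 and 14375 to 16868 in S2-028. These sums are mostly KRT8 and KRT18, and the other markers differed in order. KRT19 had means of 2123 CPM in S2-007, 103 in S2-020 and 1933 in S2-028, EPCAM 527, 122 and 421, and CDH1 54.2, 4.54 and 112. Summed levels of 6 fibroblast markers were 2.43 to 5.75 CPM, of 5 endothelial markers 5.66 to 10.1 and of 5 acinar markers 0.321 to 1.43 over all 9 libraries. The 5 leukocyte markers summed to 40.6 to 45.3 CPM in S2-007 and 9.28 to 12.6 in the other lines, and CD3E was at 0 counts in S2-007. The part of the marker differences in the results below was not tested. CPM values were scaled by the TMM method, and in bulk RNA fewer cells with a transcript and less of it per cell cannot be told apart.

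PLAU (NCBI gene 5328, chromosome 10 from 73908832 to 73917494 of GRCh38.p14) encodes uPA. It measured 392, 375 and 457 CPM in the 3 S2-007 libraries, 681, 747 and 794 in S2-020, and 2796, 2330 and 2964 in S2-028. The groups did not overlap, and every S2-028 library lay above every S2-020 library, which in turn lay above every S2-007 library. The means were 408 ± 43.2 (SD, n = 3), 741 ± 56.6 (SD, n = 3) and 2697 ± 328 CPM (SD, n = 3). Per kilobase of transcript, PLAU in S2-028 ranked 25 among the 20590 expressed genes with a known length, compared with rank 173 in S2-020 and 298 in S2-007. The gene C10orf55 lies on the opposite strand and covers part of PLAU, whose exons are 18.3% under another gene. Its count was between 0.374% and 1.10% of the PLAU count in each library.

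PLAT (NCBI gene 5327, chromosome 8 from 42174718 to 42207565) encodes tPA. Its levels were 351, 318 and 273 CPM in S2-007, 135, 153 and 139 in S2-020, and 10.6, 10.3 and 6.07 in S2-028. The order of the lines was opposite to that of PLAU, again without overlap. The means were 314 ± 39.4 (SD, n = 3), 142 ± 9.35 (SD, n = 3) and 8.98 ± 2.53 CPM (SD, n = 3). Between 370 and 657 reads were counted in the S2-028 libraries, so the transcript remained well above the floor of 3 counts.

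SERPINE2 (NCBI gene 5270, chromosome 2 from 223975045 to 224039286) encodes protease nexin-1. In S2-007 it measured 422, 510 and 562 CPM, in S2-020 10.7, 9.28 and 9.66, and in S2-028 2.01, 1.68 and 1.18. All S2-007 libraries were far above the rest, and S2-020 stood above S2-028 without overlap. The means were 498 ± 70.9 (SD, n = 3), 9.87 ± 0.714 (SD, n = 3) and 1.62 ± 0.419 CPM (SD, n = 3), and the S2-028 libraries still held 72 to 125 reads. Per kilobase it ranked first among the 5 members in S2-007 and last in the other lines.

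PLAUR (NCBI gene 5329, chromosome 19 from 43646095 to 43670169) encodes uPAR, which holds uPA at the cell surface. It measured 11.3, 12.6 and 14.3 CPM in S2-007, 42.6, 44.1 and 50.2 in S2-020, and 29.7, 17.9 and 28.4 in S2-028. The lines did not overlap, but replicate 2 of S2-028 lay closer to S2-007 than to the other S2-028 libraries. The means were 12.7 ± 1.5 (SD, n = 3), 45.7 ± 4.02 (SD, n = 3) and 25.3 ± 6.45 CPM (SD, n = 3).

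PLGRKT (NCBI gene 55848, chromosome 9 from 5357971 to 5438377) encodes the plasminogen receptor with a C-terminal lysine. It measured 4.69, 3.68 and 7.14 CPM in S2-007, 5.57, 4.11 and 4.96 in S2-020, and 6.27, 7.39 and 5.30 in S2-028. All 3 lines overlapped, and S2-007 alone spanned nearly the whole range. The coefficient of variation was 34.4% in S2-007, the highest of any member in any line, against 15% in S2-020 and 16.6% in S2-028.

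**Figure D1:**
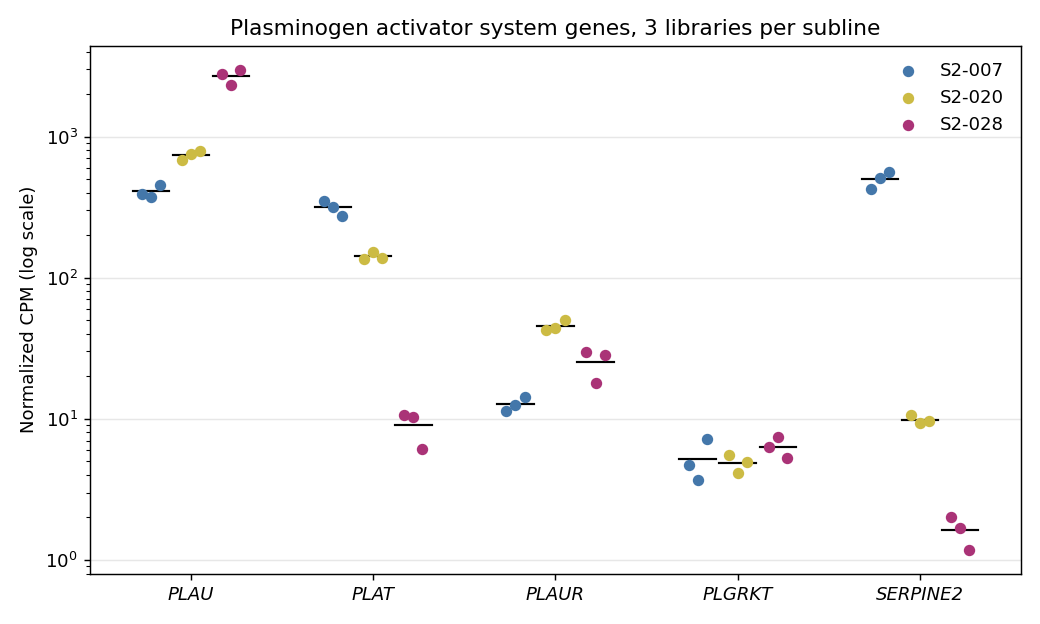
Normalized CPM on a log scale for the 5 genes, with 1 point per library and a black line at the mean of the 3 libraries of each subline. PLAU rises from 408 to 2697 CPM from S2-007 to S2-028 while PLAT falls from 314 to 8.98 and SERPINE2 from 498 to 1.62, PLAUR is highest in S2-020, and the PLGRKT libraries overlap.

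The S2-028 and S2-007 lines are those the study set side by side to ask how cells with cytMaspin differ from cells with panMaspin. Of the 5 members, 4 were differentially expressed genes (DEGs), 2 higher and 2 lower in S2-028, in a comparison that called 18.4% of all genes tested. For a DEG, edgeR's quasi-likelihood test gave a Benjamini-Hochberg adjusted p under 0.05 and the lines differed by 0.585 or more on the log2 scale. PLAU rose by 2.73 on the log2 scale (standard error 0.0815, adjusted p = 1.9e-16), and 308 of 26371 genes, itself included, rose by as much. PLAT fell by 5.13 on the log2 scale (standard error 0.149, adjusted p = 1.31e-16), and SERPINE2 fell by 8.25 (standard error 0.136, adjusted p = 2.41e-20). Of all genes tested, 55 fell as far as PLAT and 17 as far as SERPINE2. PLAUR rose by 1.00 (standard error 0.144, adjusted p = 8.33e-06). The libraries of these 4 genes did not overlap between the lines, which held for 43.3% of all genes. PLGRKT had a log2 fold change of 0.30 (95% confidence interval -0.12 to 0.71, adjusted p = 0.299), so the data leave room for a difference of either sign at this depth. Without replicate 3 of S2-007 the value was 0.58 (adjusted p = 0.0235), just under the fold-change threshold, and without replicate 2 of S2-007 it was 0.11 (adjusted p = 0.789).

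In S2-020 against S2-007, the same 4 genes were DEGs, 2 higher and 2 lower, where 21.6% of all genes were. They were also the members whose libraries did not overlap, as happened for 48.5% of all genes. Both comparisons share the S2-007 libraries, so their values are given side by side and not as a repeat. PLAUR rose by 1.82 on the log2 scale (standard error 0.0882, adjusted p = 1.27e-12) and PLAU by 0.83 (standard error 0.0639, adjusted p = 1.54e-09). PLAT fell by 1.18 on the log2 scale (standard error 0.0771, adjusted p = 1.29e-10), a 2.26-fold difference. SERPINE2 fell by 5.69 on that scale (standard error 0.0932, adjusted p = 9.15e-20), which is 51.6-fold. PLGRKT had a log2 fold change of -0.11 (95% confidence interval -0.53 to 0.30, adjusted p = 0.717). Its sign turned in 2 of the 6 fits with a library left out, and the value was 0.21 without replicate 3 of S2-007.

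In S2-028 against S2-020, the 4 genes were again DEGs, 1 higher and 3 lower, against 22.2% of all genes, and these values share libraries with both comparisons above. The same 4 did not overlap, against 48.9% of all genes. PLAU was 3.64-fold higher (1.87 on the log2 scale, standard error 0.0711, adjusted p = 5.82e-14). PLAT was 15.8-fold lower and fell by 3.98 on the log2 scale (standard error 0.134, adjusted p = 8.8e-15). SERPINE2 was 6.06-fold lower (adjusted p = 4.94e-10) and PLAUR 1.80-fold lower, with a log2 fold change of -0.85 (95% confidence interval -1.12 to -0.58, adjusted p = 2.13e-05). The PLAUR call was the least secure, because its adjusted p was 0.0521 when edgeR's glmTreat tested against a 1.5-fold change in place of no change. PLGRKT had a log2 fold change of 0.38 (95% confidence interval 0.03 to 0.72), which passed no correction (adjusted p = 0.0797, unadjusted p = 0.0345). For the neighbours in the order of levels, PLAU, PLAT, SERPINE2 and PLAUR therefore differed at each step from one line to the next, and PLGRKT at none.

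**Figure D2:**
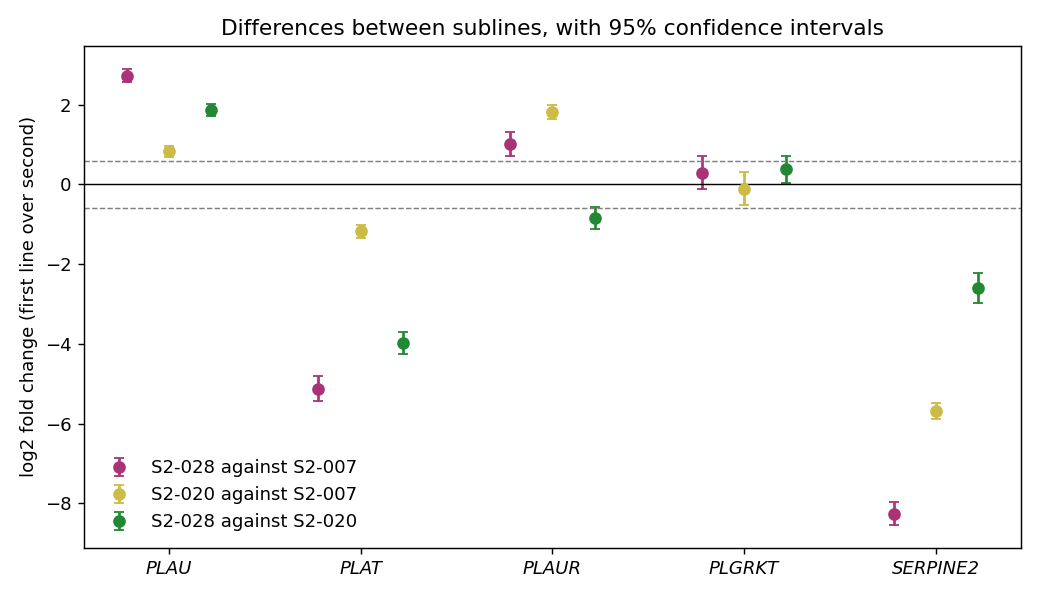
Log2 fold change of each gene in the 3 pairwise comparisons, the first-named line over the second, with 95% confidence intervals from edgeR's quasi-likelihood fit and dashed lines at the fold-change threshold of 0.585 either way. SERPINE2 reaches -8.25 and PLAT -5.13 in S2-028 against S2-007, PLAU lies at 2.73, and the intervals of PLGRKT run from -0.12 to 0.71, from -0.53 to 0.30 and from 0.03 to 0.72.

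Levels of different genes were compared per kilobase of transcript (GENCODE canonical transcript) within each library, where library scaling cancels in a ratio. PLAU made up 59.3%, 60.6% and 68.6% of the summed PLAU and PLAT level in S2-007, 86.5% to 88.2% in S2-020 and 99.7% to 99.8% in S2-028. Activator mRNA was thus of both kinds in S2-007 and almost wholly PLAU in S2-028. The sum of both activators was 277 ± 11 (SD, n = 3), 362 ± 25.3 (SD, n = 3) and 1154 ± 140 CPM per kilobase (SD, n = 3), with the lines in the same order. For each SERPINE2 transcript, PLAU gave 0.698 to 0.881 in S2-007, 60.7 to 78.1 in S2-020 and 1319 to 2386 in S2-028. With both activators summed, the ratio to SERPINE2 was 1.25 ± 0.202 in S2-007, where it was above 1 in every library, 82.3 ± 10.7 in S2-020 and 1679.5 ± 615 in S2-028 (each SD, n = 3). By these counts per kilobase, SERPINE2 in S2-007 exceeded PLAU alone but not the sum of PLAU and PLAT. Ratios this near 1 could shift with reads that cross introns, which the aligner BWA does not join. PLAU exceeded its receptor gene PLAUR in all lines, with a ratio of 18.8 ± 1.45 in S2-007, 9.48 ± 0.348 in S2-020 and 63.9 ± 10.8 in S2-028 (each SD, n = 3). These ratios have no test here, since they combine members chosen with earlier results known. With coding length in place of transcript length, none of the 15 ranks of the members within a line changed.

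**Figure D3:**
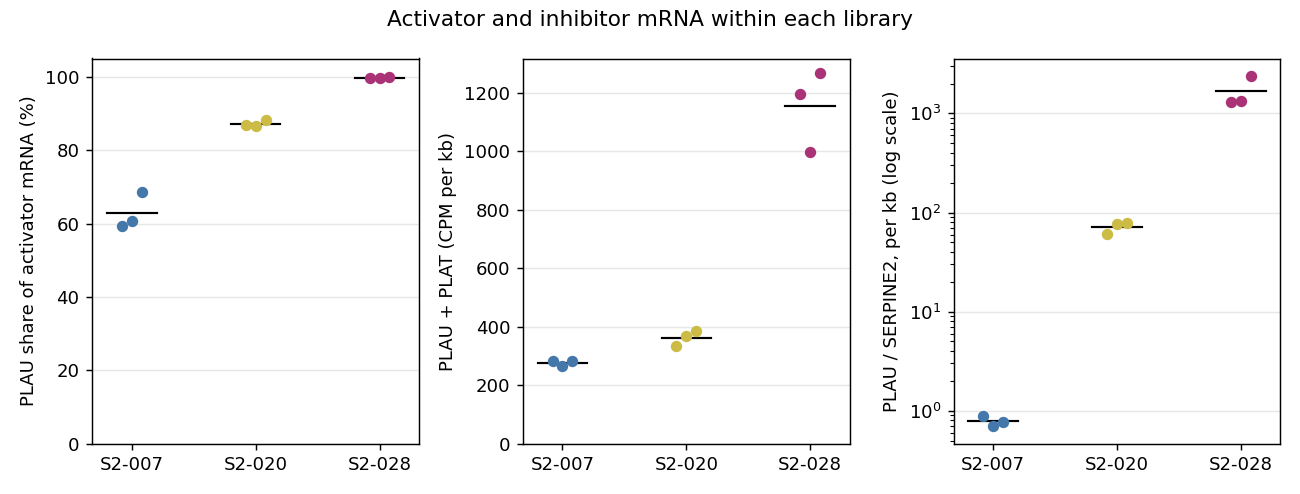
For each library, the share of PLAU in the summed PLAU and PLAT level, that sum in CPM per kilobase, and the ratio of PLAU to SERPINE2 per kilobase on a log scale, with points for libraries and lines for means. The PLAU share goes from a mean of 62.9% in S2-007 to 99.7% in S2-028, and the ratio to SERPINE2 from 0.784 to 1676.

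The other genes of the pathway were taken as 4 lists by role, 33 genes in all, of which 30 were tested in at least 1 comparison. In S2-028 against S2-007, 8 of 30 tested genes were higher DEGs and 2 were lower, beside 10.2% and 8.19% of all genes. In S2-020 against S2-007, 5 of 29 were higher and 12 lower, beside 9.57% and 12.1%. In S2-028 against S2-020, 15 of 30 were higher and 4 lower, beside 12.1% and 10.1%. The median log2 fold changes of the tested list genes were 0.38, -0.46 and 0.66, and those of all genes 0.00, -0.05 and 0.02.

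The first list held plasminogen itself and proteases that act upstream. PLG, the gene of plasminogen, was near the bottom of the range, at a mean of 1.28 CPM in S2-007, 0.902 in S2-020 and 2.94 in S2-028, and was called higher in S2-028 than in S2-007 (2.29-fold, standard error 0.276 on the log2 scale, adjusted p = 0.00151). Of its transcript sequence, 19.5% is shared with other genes, so some of these reads may belong elsewhere. ST14, the gene of matriptase, a membrane protease that can activate pro-uPA, was almost lost in S2-020. Its mean was 471 CPM in S2-007 and 619 in S2-028 but 7.26 in S2-020, and against S2-007 it fell by 6.05 on the log2 scale (standard error 0.0762, adjusted p = 2.66e-21). PRSS8, the gene of prostasin, another membrane protease, had means of 6.11 CPM in S2-007, 0.130 in S2-020 and 33.4 in S2-028. The epithelial markers KRT19, EPCAM and CDH1 were also lowest in S2-020, and their part in the ST14 and PRSS8 results was not tested. F12, the gene of coagulation factor XII, fell by 2.41 on the log2 scale in S2-020 against S2-007 (standard error 0.125). HPN was not tested in any comparison and had at most 20 counts in a library.

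The inhibitor list held further serpins, Kunitz-type inhibitors of membrane proteases, A2M and CPB2. SERPINB2, the gene of PAI-2, had at most 22 counts in a library and was not called. SERPINI1, the gene of neuroserpin, an inhibitor of tPA, had at most 144 and was called higher in S2-028 than in S2-020 (0.98 on the log2 scale, standard error 0.264, adjusted p = 0.00528). SPINT1 and SPINT2, which encode inhibitors of matriptase and related proteases, had means of 141 and 538 CPM in S2-028. SPINT1 fell by 3.62 on the log2 scale in S2-020 against S2-007 (standard error 0.0865), together with its target ST14, and SPINT2 rose by 1.16 in S2-028 against S2-007 (standard error 0.0549), with 43.1% of its transcript sequence shared with other genes. SERPINF2, the gene of antiplasmin, had means of 3.52 CPM in S2-007, 0.752 in S2-020 and 5.42 in S2-028. Its call in S2-028 against S2-007 (log2 fold change 0.63, adjusted p = 0.0311) was lost without replicate 2 of S2-007 (0.43, adjusted p = 0.169), without replicate 1 of S2-028 (0.41, adjusted p = 0.241) and without replicate 2 of S2-028 (0.62, adjusted p = 0.0612). SERPINA5, the gene of the protein C inhibitor, which also binds uPA, had 30, 0 and 8 counts in the S2-020 libraries and 167 to 217 in the others. A2M and CPB2 had at most 6 counts in any library and were not tested.

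The next list held genes whose proteins can bind plasminogen at the cell surface, and only their mRNA was measured. ANXA2 and S100A10 encode the subunits of the annexin A2 complex, which gathers plasminogen and tPA at the membrane. S100A10 had means of 508 CPM in S2-007, 291 in S2-020 and 224 in S2-028, and fell by 1.18 on the log2 scale in S2-028 against S2-007 (standard error 0.0653, adjusted p = 4.79e-12). ANXA2 was lowest in S2-020, at 1007 CPM against 2466 in S2-007 and 1995 in S2-028, and other genes share 47.3% of its sequence. KRT8 and KRT18, epithelial keratins that are also in the marker list above and of which keratin 8 can bind plasminogen, were highest in S2-028, with log2 fold changes of 0.82 and 1.27 against S2-007, and 61.1% and 74.8% of their sequence is shared with other genes. HMGB1, which encodes a chromatin protein that can also reach the cell surface, rose by 0.72 in S2-020 against S2-007 (standard error 0.0451). ENO1, which encodes a glycolytic enzyme found also at the cell surface, stayed under the fold-change threshold in each comparison.

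Among partners and clearance receptors, LRP1 had the largest fall in S2-028 against S2-007. Its means were 55 CPM in S2-007, 16.3 in S2-020 and 10.9 in S2-028, so it followed the order of SERPINE2 and PLAT. LRP1 fell by 2.33 on the log2 scale in S2-028 against S2-007 (standard error 0.104, adjusted p = 1.26e-13) and by 1.78 in S2-020 against S2-007 (standard error 0.0983). In S2-028 against S2-020 its value of -0.58 (standard error 0.127, adjusted p = 8.86e-04) was just under the threshold. MRC2, which encodes the collagen receptor that associates with uPAR, and ITGA5, a fibronectin receptor subunit, were highest in S2-020, as PLAUR was. MRC2 had means of 18.6 CPM in S2-007, 115 in S2-020 and 32.2 in S2-028, and those of ITGA5 were 22.4, 80.2 and 32.8. Against S2-007, S2-020 was higher by 2.60 on the log2 scale for MRC2 (standard error 0.0628, adjusted p = 2.46e-17) and by 1.81 for ITGA5 (standard error 0.0662, adjusted p = 1.5e-14). SORL1, a sorting receptor that can bind uPA with its inhibitor, fell by 1.22 in S2-020 against S2-007 (standard error 0.0504). ITGA3, a laminin receptor subunit, was 0.64 higher on the log2 scale in S2-028 than in S2-020 (standard error 0.0503).

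**Figure D4:**
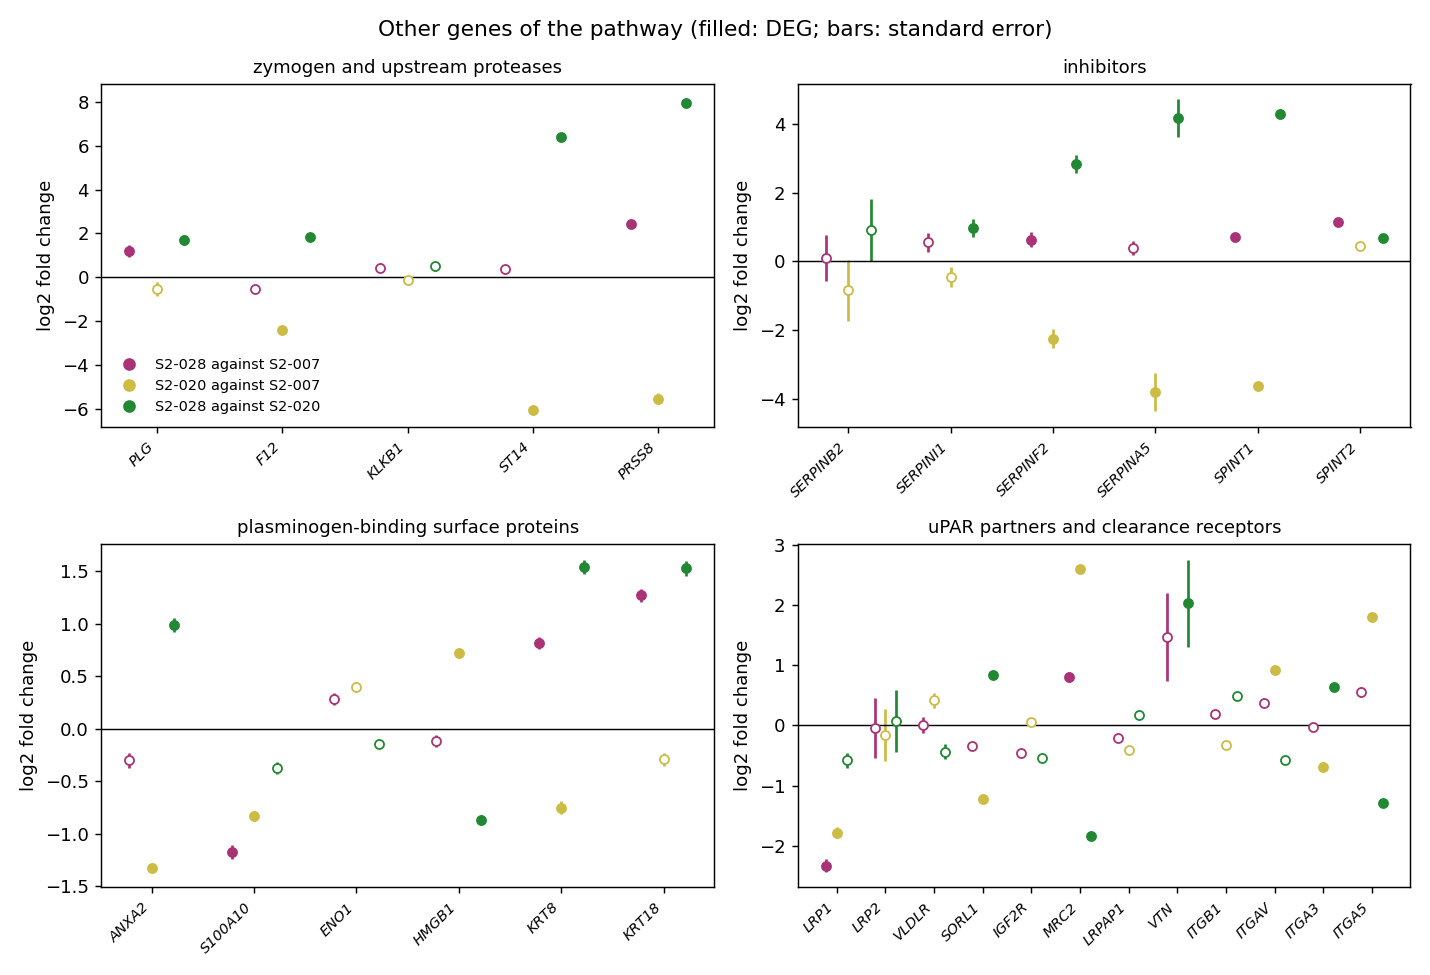
Log2 fold changes of the tested pathway genes reported here, 1 panel per list, in the 3 comparisons, with bars for the standard error and filled points for DEGs. ST14 fell by 6.05 and PRSS8 fell by 5.55 in S2-020 against S2-007, LRP1 falls in both comparisons with S2-007, and MRC2 and ITGA5 stand highest in S2-020.

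Genes with a pattern most like a member's were sought by Pearson's r of log2 CPM over the 9 libraries among the 10524 genes whose mean log2 CPM was 3 or more. With 3 lines of 3 libraries each, r mostly reflects the line means, and it is a description. SERPINE2 was most like MDK (r = 0.999), GRK5 (0.998) and HSD17B2 (0.998), and MDK, the gene of the growth factor midkine, had mean log2 CPM of 8.01 in S2-007, 6.02 in S2-020 and 4.98 in S2-028. PLAU was most like USP34 (0.996), TANC2 (0.995) and SHISA2 (0.994). PLAT was most like CDKN2AIP (0.997), EXT1 (0.997) and MTMR11 (0.996), PLAUR most like WASF2 (0.994), PLP2 (0.988) and TNRC6C (0.988), and PLGRKT most like C11orf80 (0.895), SBF1 (0.872) and DHRS4L2 (0.861). Among the members, r was -0.99 between PLAU and PLAT and 0.86 between PLAT and SERPINE2.

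The 5 genes lie on different chromosomes, and the 50 nearest tested genes around each were examined to see whether the region moved with it. Around PLAU the median log2 fold change in S2-028 against S2-007 was 0.04, with 2 higher and 0 lower DEGs. The neighbours of PLAT had medians of 0.13 in that comparison and 0.21 in S2-020 against S2-007, opposite in sign to PLAT, and of -0.17 in S2-028 against S2-020. Around PLAUR the medians were 0.37 in S2-028 against S2-007 and 0.27 in S2-020 against S2-007, with 14 and 11 higher and each time 3 lower DEGs among 50, beside 10.2% and 9.57% higher among all genes. In S2-028 against S2-020, where PLAUR fell by 0.85, its neighbours had a median of 0.11 with 7 higher DEGs and 1 lower. Around SERPINE2 the median was -0.18 in S2-028 against S2-007 and -0.61 in S2-020 against S2-007, with 13 and 16 lower and 4 and 1 higher DEGs among 50, beside 8.19% and 12.1% lower among all genes, while SERPINE2 itself fell by 8.25 and fell by 5.69. In S2-028 against S2-020 SERPINE2 fell by 2.60, whereas its neighbours had a median of 0.08 with 10 higher DEGs and 0 lower, beside 12.1% higher among all genes. Around PLGRKT the medians were -0.04 and -0.16 against S2-007, and 0.09 in S2-028 against S2-020. The part of the region was not tested for any member.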

How the data were processed

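RNA-seq was run on 3 libraries from each of the sublines S2-007, S2-020 and S2-028. Per the paper and the submitters' processing notes, Trimmomatic 0.39 trimmed the reads and BWA 0.7.17 placed them on GRCh38.p14. The authors deposited whole-number counts of reads per gene without normalization. The counting tool and its use of strand and of reads with several matches are not given in the sources used here, and BWA does not join reads across introns, which can lower the counts of genes with short exons. Of values from 1 to 20, 75.3% were even, against 49.8% of values from 1000 to 2000, so low counts often come in pairs, and a count of 2 may stand for 1 fragment. The 18 columns of normalized values in the table were not used, and 2 lines that name no gene were left out.

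Samples were grouped by their titles. The tests used edgeR 4.0.16 (R 4.3.3): filterByExpr (minimum count 10, minimum total 15), TMM normalization and the quasi-likelihood test, on the 6 libraries of the lines compared. The common biological coefficient of variation was 0.159 in S2-028 against S2-007, 0.151 in S2-020 against S2-007 and 0.150 in S2-028 against S2-020. DEGs had a Benjamini-Hochberg adjusted p under 0.05 over all genes tested and differed by 0.585 or more, either way, on the log2 scale. Standard errors were computed from the fold change and F. Printed CPM use TMM factors of all 9 libraries, log2 CPM a prior count of 2. Alternatives were RLE factors, the likelihood ratio test, DESeq2 1.42.0, glmTreat, no filter, all 9 libraries in 1 fit, the replicate number as a block and each library left out. The procedure was also run on simulated counts with the same spread for every gene, a simpler case than these data, so that run does not test the calls here. Labels do not say whether libraries of a line are separate cultures, so p-values measure the spread between these libraries, which may be technical. Floors cover counting error only.

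Members and lists were chosen with earlier results of these data known. Named were the members, at most 4 DEGs per list and comparison with the smallest adjusted p, and the 3 genes most like each member; HPN, A2M, CPB2, SERPINB2, SERPINI1 and ENO1 were named after their values were seen. Coordinates come from RefSeq (GRCh38.p14, 99.6% of gene identifiers matched), lengths and sequence overlap (words of 31 bases) from GENCODE v44 on GRCh38. No protein sequences were used here. The values of 1 list gene are not reported here, though the list counts and medians include it.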

Additional observations from a re-analysis of the deposited data

How the results depend on the processing

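Calls and directions of the 5 members were recomputed under 7 other settings and with each of the 6 libraries left out, in each comparison. Of 195 such values, 192 kept their direction and side of the threshold. PLAUR in S2-028 against S2-020 kept its log2 fold change of -0.85 but was not called by glmTreat against a 1.5-fold change (adjusted p = 0.0521). PLGRKT in S2-020 against S2-007 changed sign in 2 of the 6 fits with a library left out, lying between -0.30 and 0.21, and was called under no setting. With each library left out, PLAU in S2-028 against S2-007 lay between 2.66 and 2.82, PLAT between -5.27 and -4.91, SERPINE2 between -8.44 and -8.07, PLAUR between 0.87 and 1.19 and PLGRKT between 0.11 and 0.58. By glmTreat the numbers of DEGs were 2977 in S2-028 against S2-007, 3639 in S2-020 against S2-007 and 3638 in S2-028 against S2-020, compared with 4858, 5769 and 5788, since that null hypothesis is stricter by construction. With each library left out they were 4641 to 4828, 5488 to 5791 and 5507 to 5723.

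With the replicate number as a block, 4865, 5650 and 5716 DEGs were called, and no call of a member changed. Over all expressed genes, same-numbered libraries of different lines hardly deviated together (r between -0.05 and 0.14 over 9 pairs). Such a correlation cannot show whether they share a culture or preparation, and the labels do not say. The higher and lower DEGs of the pathway lists stayed within 1.5 times their counts under every setting. Of 533 values of the named list genes, 526 kept their call. Besides SERPINF2, the call was lost by glmTreat for SPINT1 in S2-028 against S2-007 (adjusted p = 0.0727), and for SPINT2 (0.0654) and ITGA3 (0.29) in S2-028 against S2-020. Depth limits PLG, SERPINB2 and SERPINI1, which had at most 210 counts per library. The call of SERPINI1 in S2-028 against S2-020 is not among the 533 values, so its dependence on the settings was not examined.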
